A study of Mus musculus with 6 samples.

Results

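The genes described here encode 9 enzymes that turn the open chain of squalene epoxide into cholesterol: Lss, Cyp51, Tm7sf2, Msmo1, Nsdhl, Hsd17b7, Ebp, Sc5d and Dhcr7. They were chosen by gene symbol, as members of this route, out of 22180 genes that the arrays measured under a single symbol. Each was read by 1 probe set. Arrays were run on lung fibroblasts in primary culture, taken from adult mice of mixed strain that carried UBCCreERT2 and R26RSmoM2. The first is a tamoxifen-inducible Cre recombinase under the broadly active ubiquitin C promoter, and the second is a silent allele of SmoM2, a constitutively active Smoothened, at the Rosa26 locus. Both groups carried both alleles. The vehicle group (n = 3) received an unnamed vehicle and the 4OHT group (n = 3) received 1 µg/ml 4-hydroxytamoxifen, the active metabolite of tamoxifen, with RNA taken after 48 h. The labels give all 6 arrays the same genotype number and describe wells split from isolated cells, but do not say how many animals the cells came from. The p-values measure the spread between these wells, which may be technical. No group had the drug without the SmoM2 allele, and an effect of the compound, of Cre activity and of SmoM2 cannot be told apart.

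Cells make cholesterol from acetyl-CoA through mevalonate to squalene, and the post-squalene enzymes of the endoplasmic reticulum then close the rings and trim, shift and reduce the sterol until cholesterol is reached. Most genes of the route are activated by SREBP-2, a transcription factor held in the endoplasmic reticulum while its membrane is rich in sterols and released when sterols run low. The products of Ebp and Dhcr7 together form the microsomal antiestrogen binding site, which binds tamoxifen and 4OHT, and tamoxifen-type compounds inhibit both enzyme activities. Sterols also bind Smoothened itself, which ties this route to hedgehog signalling.

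All 9 genes were higher in 4OHT wells. Each passed an adjusted p under 0.05 (limma, Benjamini-Hochberg over 22180 genes), whereas 5.38% of all genes passed in that direction. The median log2 fold change over the 9 was 0.51, or 1.42-fold, against -0.0051 over all genes. In all 9 every 4OHT array lay above every vehicle array, which was so for 15.0% of all genes. Ordered by size, the rises fell from Lss at 1.81-fold, the 47th largest rise of all genes, to Ebp at 1.22-fold. The genes had been picked with earlier results of these arrays known, so their shared direction is a description.

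**Figure D1:**
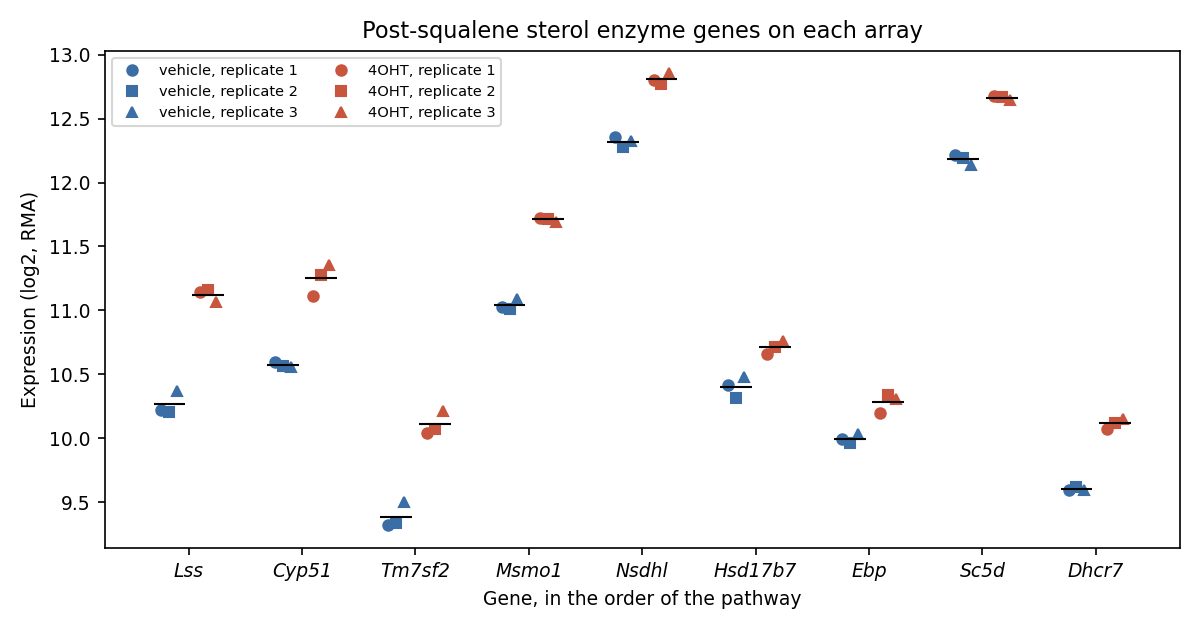
Log2 expression of the 9 genes on each of the 6 arrays, in the order of the pathway; blue marks vehicle and red 4OHT, the marker shape gives the replicate number and black lines are group means. In every gene the 3 red points lie above the 3 blue ones, with the widest step in Lss (10.27 to 11.12) and the narrowest in Ebp (10.00 to 10.28); heights of different genes are not comparable as RNA amounts.

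The promoters of these genes are shown first, because the genes moved together and known SREBP-regulated promoters combine an SREBP site with boxes for the cofactors NF-Y (CCAAT) and Sp1. RefSeq windows from 250 bases before to 50 bases from the transcript start were found for all 9 genes (GRCm38.p6). There were 11 windows, with 3 alternative starts for Dhcr7 and 1 for each other gene. The stretches below run from 110 to 11 bases before the start, 5′ to 3′ on the strand of the gene. Lss and Ebp are shown as the genes of largest and smallest rise. Cyp51, Sc5d and the third start of Dhcr7 are shown as examples whose stretch holds both a loose SREBP-like match and a CCAAT box. The same stretch of Msmo1 also holds both and is not printed. They lie at chr10:76531495-76531594 on the plus strand (Lss), chr5:4104708-4104807 on the minus strand (Cyp51), chr9:42264311-42264410 on the minus strand (Sc5d), chr7:143830104-143830203 on the plus strand (Dhcr7) and chrX:8193523-8193622 on the minus strand (Ebp), each upstream of the annotated start of its window. The Dhcr7 stretch, before the third start, lies inside the gene (chr7:143823167-143848410). Capitals mark CCAAT, read as ATTGG on the other strand, and TCACNNCA.
Lss: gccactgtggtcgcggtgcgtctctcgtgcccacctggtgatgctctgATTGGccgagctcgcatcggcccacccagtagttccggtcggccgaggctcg
Cyp51: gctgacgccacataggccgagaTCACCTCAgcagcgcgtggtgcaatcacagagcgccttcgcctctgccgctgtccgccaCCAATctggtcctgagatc
Sc5d: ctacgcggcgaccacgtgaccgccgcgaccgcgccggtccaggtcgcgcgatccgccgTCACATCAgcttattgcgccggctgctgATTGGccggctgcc
Dhcr7: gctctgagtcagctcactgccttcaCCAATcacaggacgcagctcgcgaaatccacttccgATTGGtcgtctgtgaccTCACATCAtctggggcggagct
Ebp: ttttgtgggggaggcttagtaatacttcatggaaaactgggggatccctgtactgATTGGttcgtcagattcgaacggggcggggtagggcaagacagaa

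Motifs were searched on both strands. CCAAT was found in at least 1 window of 9 of the 9 genes, in 9 of the 11 windows and in 37.4% of 32851 promoter windows of the mouse. In Dhcr7 it was found only in the window of the third start, which lies inside the gene. GGGCGG, the Sp1 box, was in 10 of the 11 windows and in 35.7% of all. The classical SREBP element and the relaxed form TCACNCCAC were in none of the 11 windows, and in 0.0913% and 1.24% of all windows. A looser form, TCACNNCA, which contains every match of the other spellings and was chosen after the sequences had been seen, was in 7 of the 11 windows and in 13.8% of all. These 7 windows belonged to 6 genes, Cyp51, Msmo1, Nsdhl, Hsd17b7, Sc5d and Dhcr7, while Lss, Tm7sf2 and Ebp had none. In Sc5d the loose match lay 52 to 45 bases before the start and the CCAAT box 24 to 20 bases before it. In Msmo1 a loose match overlapped a CCAAT box by its first base. In Nsdhl the loose match reached across the start itself. The Gli site GACCACCCA, bound by the transcription factors of hedgehog signalling, was in none of the 11 windows and in 0.253% of all. The E-box CACGTG was in 1 window each of Hsd17b7, Sc5d and Dhcr7 and in 7.15% of all windows. A match is a run of letters, not a shown binding site, and its absence covers these windows alone.

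**Figure D2:**
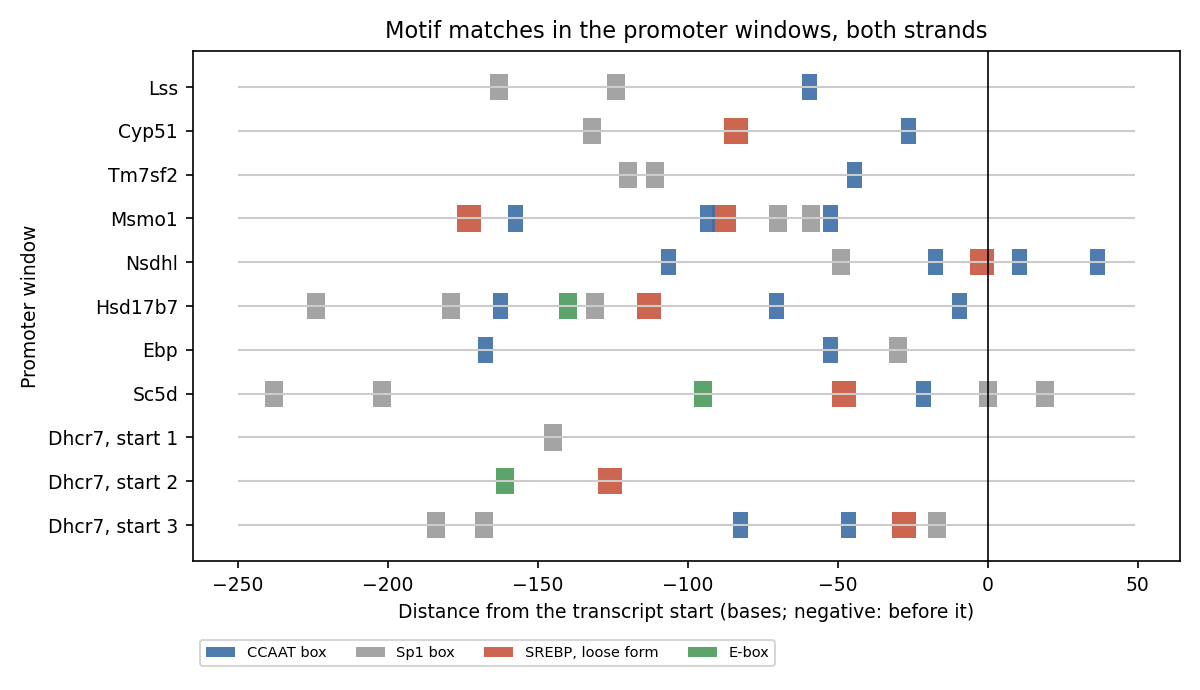
Positions of motif matches in the 11 promoter windows, with distance from the transcript start in bases on the x axis and 1 row per window; colours give the motif and the vertical line the start. CCAAT boxes stand in 9 of the 11 rows, and the loose SREBP form TCACNNCA in 7; the classical SREBP and Gli spellings have no match and so no mark.

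Lss, lanosterol synthase, closes the rings and gives the first sterol. Its log2 expression was 10.22, 10.21 and 10.37 on the vehicle arrays and 11.15, 11.16 and 11.06 on the 4OHT arrays. The lowest 4OHT array stood 0.69 above the highest vehicle array, the widest such gap of the 9 genes. The log2 fold change was 0.86 (SE 0.061, 95% interval 0.71 to 1.00, adjusted p = 0.00055).

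Cyp51, the cytochrome P450 that removes a methyl group from lanosterol, had log2 expression of 10.60, 10.57 and 10.56 in vehicle wells and 11.12, 11.28 and 11.35 in 4OHT wells. Its vehicle arrays lay within 0.042 of each other, its 4OHT arrays within 0.24, the widest range of any of the 9 genes in 4OHT wells. It rose 1.60-fold (log2 fold change 0.68 with an SE of 0.067, adjusted p = 0.00172). Tm7sf2 encodes the sterol reductase that removes the double bond left by Cyp51. Tm7sf2 read 9.32, 9.34 and 9.50 on the log2 scale in vehicle wells and 10.04, 10.07 and 10.22 in 4OHT wells. Replicate 3 was the highest array of this gene in both groups. Its log2 fold change of 0.72 (SE 0.072, adjusted p = 0.00173) was the second largest of the 9, with a fold of 1.65.

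The methyl groups beside the hydroxyl of the sterol are removed by Msmo1, Nsdhl and Hsd17b7, which act as one complex of oxidase, decarboxylating dehydrogenase and ketone reductase. The fitted rises of the 3 genes ran from 0.31 to 0.67 on the log2 scale. In each of their 3 pairs the within-array differences separated the groups, a count with no background share from pairs of other genes. The two-sided exact permutation p was 0.1 for each pair (adjusted p = 0.138). With 3 against 3 arrays this p cannot go lower, so the test could not pass. Msmo1 read 11.03, 11.01 and 11.09 in log2 expression in vehicle wells and 11.72, 11.72 and 11.69 in 4OHT wells. The 4OHT arrays of this gene lay within 0.028 of each other, the tightest of the 9 genes, and its adjusted p of 0.000423 was the smallest of the 9 (log2 fold change 0.67, SE 0.043, 1.59-fold). Nsdhl read 12.35, 12.28 and 12.33 against 12.80, 12.77 and 12.85 on the log2 scale and rose 1.40-fold (log2 fold change 0.49, SE 0.046, adjusted p = 0.00143). Hsd17b7 read 10.42, 10.31 and 10.48 against 10.66, 10.72 and 10.76. Its groups stood only 0.18 apart at their nearest arrays, about as much as its vehicle arrays differed among themselves (0.17). It rose 1.24-fold (log2 fold change 0.31, SE 0.059, 95% interval 0.17 to 0.45, adjusted p = 0.0193).

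Ebp, the isomerase that shifts the ring double bond, and Dhcr7, the reductase that makes cholesterol from its immediate precursor, form the drug binding site. Ebp had log2 expression of 10.00, 9.96 and 10.04 in vehicle wells and 10.20, 10.34 and 10.31 in 4OHT wells, with 4OHT replicate 1 the lowest of its group. Dhcr7 read 9.60, 9.62 and 9.60 against 10.07, 10.12 and 10.16, and its vehicle arrays lay within 0.019 of each other. Both rose, in log2 terms Ebp by 0.29 (SE 0.053, 95% interval 0.16 to 0.41, adjusted p = 0.0178) and Dhcr7 by 0.51 (SE 0.043, 95% interval 0.41 to 0.61, adjusted p = 0.000939). Within each array, Ebp minus Dhcr7 lay between 0.35 and 0.44 in log2 units in vehicle wells and between 0.13 and 0.22 in 4OHT wells. The rise of Ebp was thus smaller by 0.23 on the log2 scale, with no overlap of the groups (p = 0.1 by two-sided exact permutation, which with 3 against 3 cannot go lower). Sc5d, the desaturase that acts between them, read 12.21, 12.20 and 12.14 in vehicle wells and 12.67, 12.67 and 12.64 in 4OHT wells on the log2 scale. It rose 1.40-fold (log2 fold change 0.48, SE 0.043, adjusted p = 0.00118), close to Dhcr7 and Nsdhl.

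**Figure D3:**
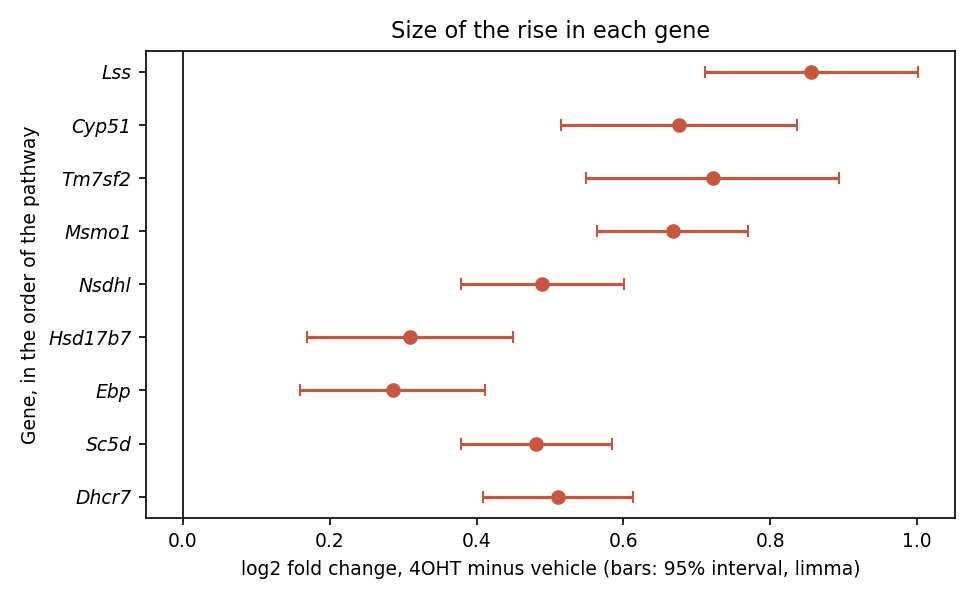
Log2 fold change (4OHT minus vehicle) of each gene with its 95% interval from limma, n = 3 arrays per group, genes in the order of the pathway from top to bottom. The first 4 genes of the route lie between 0.67 and 0.86, Nsdhl, Sc5d and Dhcr7 between 0.48 and 0.51, and Hsd17b7 and Ebp at 0.31 and 0.29.

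Along the route, the 4 genes of the first steps, Lss, Cyp51, Tm7sf2 and Msmo1, had the 4 largest rises, a grouping seen in the values and not tested. Neighbours in the order of size had overlapping 95% intervals in 8 of 8 pairs. Further apart in that order, the interval of Lss did not overlap those of Dhcr7, Nsdhl, Sc5d, Hsd17b7 and Ebp. The intervals of Tm7sf2, Cyp51 and Msmo1 did not overlap those of Hsd17b7 and Ebp. All other pairs overlapped. The within-array differences separated the groups in 26 of the 36 possible pairs. Each of these 26 had an exact permutation p of 0.1 (adjusted p = 0.138 over the 36 pairs). The 36 pairs reuse the same genes and are not independent. The share of separated pairs among other genes was not computed, so whether 26 of 36 is unusual was not tested. Lss and Ebp, at the ends of the order, differed by 0.57 on the log2 scale in their rise. Nsdhl, Sc5d and Dhcr7 differed from each other by at most 0.030, with overlapping groups in each of their 3 pairs (exact permutation p from 0.5 to 0.8).

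The calls of Hsd17b7 and Ebp depended on single arrays. Ebp did not pass when vehicle replicate 1 (adjusted p = 0.0597) or 2 (0.0709) was left out, nor without replicate 2 (0.0722) or 3 (0.0503) of 4OHT, and its log2 fold change then lay between 0.26 and 0.28. Hsd17b7 did not pass without the same arrays (adjusted p = 0.0578, 0.0603, 0.0734 and 0.0544 in that order). The other 7 genes passed without any of the 6 arrays, with adjusted p from 0.00216 (Lss, without vehicle replicate 3) to 0.0116 (Cyp51, without 4OHT replicate 2). The number of all genes called higher, 1193 with 6 arrays, also dropped, to 655 and 556 without vehicle replicates 1 and 2 and to 622 and 486 without 4OHT replicates 1 and 2. Replicate 1 of the 4OHT group was the lowest of its group in 5 of the 9 genes and replicate 2 of the vehicle group in 5 of the 9. The mean log2 expression of the 9 genes still ran only from 10.61 to 10.68 in vehicle wells and from 11.16 to 11.23 in 4OHT wells.

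**Figure D4:**
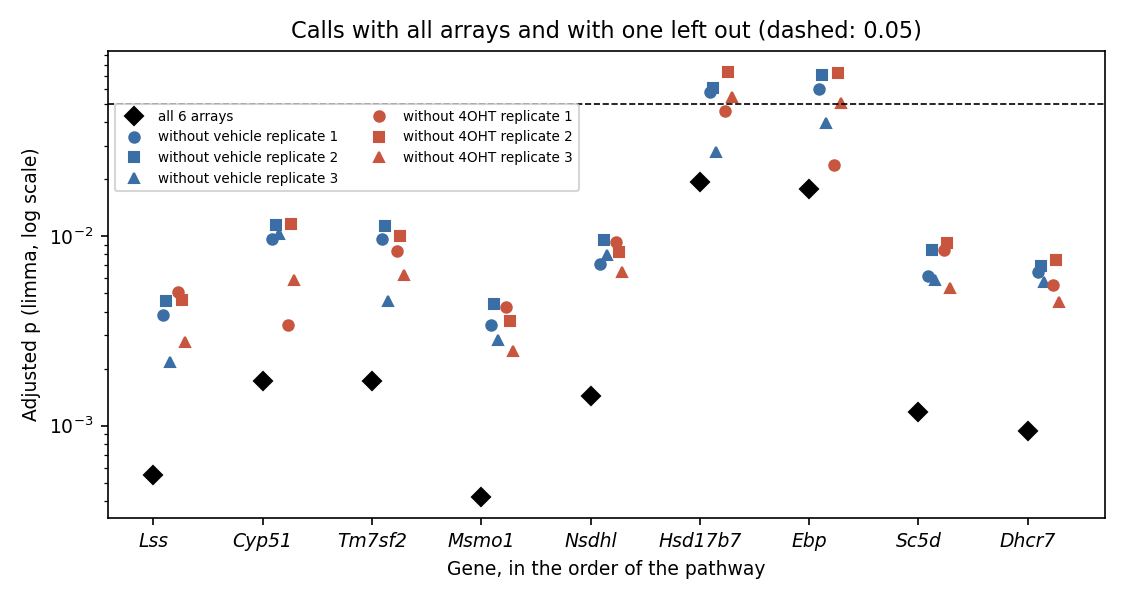
Adjusted p of each gene (limma, log axis) with all 6 arrays (black diamonds) and with each array left out (blue, a vehicle array; red, a 4OHT array; shape gives the replicate). Only Hsd17b7 and Ebp cross the dashed line at 0.05, each in 4 of the 6 fits with an array left out.

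Other genes of cholesterol metabolism were read from lists by role. Of all genes, 5.38% were called higher and 6.62% lower, the shares to set beside each list and marker count below. In the mevalonate arm, which supplies squalene, 7 of 9 measured genes rose and none fell (median log2 fold change 0.42). Hmgcs1, the synthase of HMG-CoA, rose 1.59-fold, Fdps, which makes farnesyl diphosphate, 1.41-fold, the decarboxylase gene Mvd 1.65-fold and the kinase gene Pmvk 1.71-fold. Sqle, the epoxidase directly before Lss, rose 1.34-fold (log2 fold change 0.42, adjusted p = 0.0047), less than Lss. The 2 that did not pass were Ggps1 (log2 fold change -0.01), whose product serves protein prenylation, and Idi2 (-0.10). These 2 and Sqle were named after their values had been seen.

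Among regulators of the route, 4 of 12 rose and none fell. Insig1, the sterol-regulated retention protein for SREBP, rose 2.45-fold, Stard4, a sterol carrier, 1.44-fold, Srebf1 1.34-fold and Srebf2, the gene of SREBP-2, 1.27-fold. The list's median log2 fold change was 0.03. The SREBP escort gene Scap (-0.02) and the activating protease genes Mbtps1 (-0.04) and Mbtps2 (0.07), named after their values had been seen, had adjusted p of 0.868, 0.664 and 0.373.

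Of 9 measured genes for other post-squalene steps and partner proteins, 2 passed, both higher (median log2 fold change 0.10). Lbr, whose product catalyses the same reduction as that of Tm7sf2, rose by 0.30 on the log2 scale (adjusted p = 0.0213), against 0.72 for Tm7sf2. Pgrmc2, a heme-binding membrane protein gene, rose by 0.20 (adjusted p = 0.0286). Without any of the 6 arrays other than vehicle replicate 3 neither passed, and without that array Lbr alone did. The log2 fold change was 0.12 (adjusted p = 0.16) for Cyb5r1, a reductase gene, and -0.16 for Ebpl, the relative of Ebp without known isomerase activity (adjusted p = 0.247; 8.63 in 4OHT wells against 8.79 in vehicle wells).

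Among genes for other tamoxifen-binding or sigma sites, 1 of 5 rose and 2 fell, beside 6.62% of all genes that fell. Tmem97, the sigma-2 receptor gene and a known sterol-regulated gene, rose by 0.20 on the log2 scale (adjusted p = 0.0271), but passed in none of the 6 fits that leave out an array, with adjusted p between 0.0653 (4OHT replicate 3) and 0.0841 (vehicle replicate 2). Gper1, a membrane estrogen receptor gene, fell by 0.80 and the estrogen receptor gene Esr1 by 0.37. For Esr2 the log2 fold change was -0.04 (adjusted p = 0.654).

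The liver X receptors (LXR) answer to oxysterols, which build up when sterol is plentiful. In the list of sterol export, esterification and LXR signalling, 8 of 15 measured genes rose and none fell (median log2 fold change 0.26). Its esterification genes, Soat1 and Soat2, were not measured under a single symbol. The list also holds genes of sterol carriers and hydroxylases. Star, a mitochondrial cholesterol carrier gene, rose 2.55-fold, Apoe, an apolipoprotein gene, 2.16-fold, Ch25h 1.43-fold and Cyp27a1 1.31-fold; the last pair encode oxysterol-forming hydroxylases. Abca1 (log2 fold change 0.49) was among those that rose, while that of Abcg1, another LXR target, was -0.16 (adjusted p = 0.224); both were named after their values had been seen. Without vehicle replicate 2, 5 members of this list rose and 1 fell, and without 4OHT replicate 2, 4 rose.

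The precursor that Dhcr7 reduces is also the source of vitamin D, and sterols feed bile acid and steroid synthesis. Of 7 measured genes of such uses, 2 rose and 1 fell (median log2 fold change 0.02). Vdr, the vitamin D receptor gene, fell by 0.80 on the log2 scale (adjusted p = 0.0012), whereas Cyp2r1, a vitamin D hydroxylase gene, rose by 0.36 (adjusted p = 0.0059). Hsd3b7, which acts in bile acid synthesis, rose by 0.41 (adjusted p = 0.0126) and did not pass once 4OHT replicate 2 was left out (0.0523). For Dhrs7 the log2 fold change was -0.21 (adjusted p = 0.132). Without vehicle replicate 3, 2 members of the list fell.

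**Figure D5:**
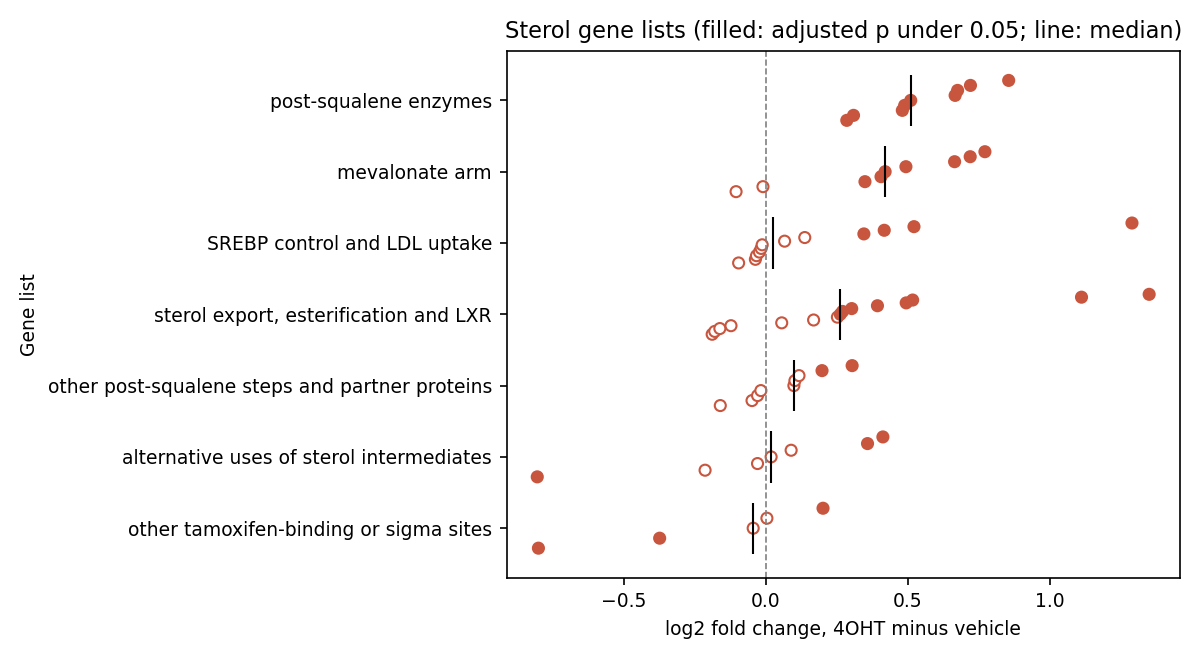
Log2 fold change (4OHT minus vehicle) of every measured gene of 7 lists, 1 row per list; filled points passed an adjusted p under 0.05, open points did not, and black lines are list medians. All 9 post-squalene points and 7 of the 9 mevalonate points are filled and to the right of 0, while the other lists hold open points on both sides.

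The genes most like the 9 over the arrays were found by Pearson correlation with the mean of their standardised values. The 5 of highest r were Fads1 (a fatty acid desaturase gene), Flcn (folliculin), Pvr (a cell adhesion receptor gene), Hsd17b11 (a lipid droplet dehydrogenase gene) and Elovl6 (a fatty acid elongase gene). Their r lay between 0.997 and 0.999 over 6 arrays, and 106 genes had an r above 0.99. The arrays form 2 separate groups, so r here mostly ranks genes by how clean their step between the groups is. Fads1 rose 1.35-fold and Elovl6 1.48-fold, from 12.39, 12.37 and 12.48 in log2 expression in vehicle wells to 12.92, 13.02 and 13.00 in 4OHT wells. Flcn rose 1.45-fold, Pvr 1.35-fold and Hsd17b11 1.20-fold.

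Several facts of the whole cultures moved beside the rises. Pearson's r over all genes was 0.997 to 0.998 between arrays of a group and 0.995 to 0.996 between groups. Gli1, the readout of hedgehog activity, rose 1.28-fold (adjusted p = 0.0167) but did not pass when vehicle replicate 1, 2 or 3 was left out (0.0538, 0.0541 and 0.0543). Gli1 was dim, with mean log2 expression of 6.46 in vehicle and 6.81 in 4OHT wells. Its mean level stood at percentile 38.2 of all genes. Of 6 measured proliferation markers 5 fell and none rose (median log2 fold change -1.39), with a summed linear signal of 8431 to 9187 in vehicle and 5107 to 5461 in 4OHT wells. Of 9 fibroblast markers 1 fell (summed signal 75200 to 77309 in vehicle and 73239 to 74632 in 4OHT wells). Of 5 smooth muscle and pericyte markers 4 fell (32174 to 32347 against 25447 to 26375), of 4 mesothelial markers 1 rose and 2 fell (16851 to 17111 against 14756 to 15419) and of 5 endothelial markers 2 rose and 3 fell (742 to 816 against 609 to 627). Of 6 epithelial markers 1 fell (1486 to 1580 against 1277 to 1322), and of 5 leukocyte markers 1 rose and 1 fell (1778 to 1885 against 1748 to 1840). No marker is at 0 on these arrays, whose values include background. The mesothelial genes Upk3b and Msln were bright in both groups, with mean log2 expression of 13.10 (Upk3b) and 12.12 (Msln) in vehicle wells and of 12.69 and 12.41 in 4OHT wells. The part of cell division and of the mix of cells in the rise of the 9 genes was not tested, and fewer cells of a type and less RNA per cell cannot be told apart in bulk RNA.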

How the data were processed

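Total RNA (100 ng per reaction, poly(T)-primed, biotin-labelled) was read on single-colour Affymetrix arrays, per the labels' protocols. The deposited table holds log2 values per probe set, and oligo, RMA and limma are named in the submitters' processing notes. A genome build was not given in the sources used here. RMA corrects background, equalizes array distributions and summarises probes, which removes shifts shared by all genes and compresses changes of dim genes. Of 41345 probe sets, 23521 had 1 gene symbol, 1814 several and 16010 none in the platform annotation. The brightest probe set (highest mean over the arrays) stood for a gene, with no filter on dim genes.

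The 2 treatments were tested with limma 3.58.1 under R 4.3.3 (lmFit, eBayes, two-sided, 6.70 degrees of freedom), Benjamini-Hochberg adjusted over 22180 genes and called under 0.05. The number of arrays limits precision. The tests were tried on simulated data. Lists hold textbook genes, of which up to 4 of smallest p are named, as are all 9 enzymes, Gli1 and the 5 genes most alike, predicted and small RNA genes left out. Members and lists were chosen with earlier results of these data known. Alternatives were a replicate block, leaving out each array, array centring, repeated quantile normalization, a filter on dim genes, mean or all probe sets, trended and robust eBayes, array weights and a threshold of 0.01. The labels do not say whether replicate numbers pair the arrays, and the main fit had no block. Deviations of same-numbered arrays correlated at 0.062, -0.024 and 0.043 over genes. Those of differently numbered arrays correlated at -0.076 to 0.031. These values are too small and too few to settle whether the arrays were paired. Promoter sequences are from RefSeq (GRCm38.p6). Protein sequences were not used here.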

Additional observations from a re-analysis of the deposited data

How the results depend on the processing

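In 15 alternatives none of the 9 enzyme genes changed direction, and 124 of 135 values kept their side of the threshold; the other 11 were those of Hsd17b7 and Ebp. Between 7 and 9 of the 9 were called higher when any array was left out, 8 with the replicate block (Ebp, adjusted p = 0.0546) and 7 at an adjusted p under 0.01. In all 15 the groups of all 9 did not overlap, but only array centring and repeated normalization altered the values of these genes. In the other alternatives neither the separation of the groups nor the direction could change. The cause of the following shifts was not tested, beyond the smaller number of arrays, the stricter threshold or the removal of a gene by the filter itself. Over all genes, 2662 were called. With the replicate block, which changed no other call of the 9, 1568 were called (648 higher, 920 lower), and 0 genes rose among the other post-squalene steps and among the tamoxifen-binding sites (adjusted p = 0.0560 for Lbr, 0.0783 for Pgrmc2 and 0.0898 for Tmem97). Gli1 did not pass with the replicate block either (adjusted p = 0.0560). With any array left out, 1220 to 2326 genes were called (486 to 986 higher, 734 to 1340 lower). The other post-squalene list then had 0 to 1 higher, the tamoxifen-binding list 0 higher and the export list 4 to 8 higher and 0 to 1 lower. The list of alternative uses had 1 to 2 higher and 1 to 2 lower. The mevalonate list had 5 to 7 higher with any array left out, 6 with the replicate block and 5 at an adjusted p under 0.01, with none lower. With trended and robust eBayes 4123 genes were called (1828 higher, 2295 lower), with 1 export gene and 2 of the alternative uses lower. With dim genes left out, 1 tamoxifen-binding, 1 export and 2 alternative-use genes were lower. That filter kept genes above the median level and removed Gper1, whose mean level stood at percentile 49.5 of all genes. Esr1 was the tamoxifen-binding gene that remained lower. Under 0.01, 1010 genes were called (395 higher, 615 lower), with 0 other post-squalene, 0 tamoxifen-binding, 4 export and 1 alternative-use gene higher. Each enzyme gene had 1 probe set, so the choice among probe sets changed none of their fold changes. Array centring and repeated normalization moved the median of all genes only to 0.016 and 0.0037.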
